A study of Mus musculus with 20 samples.

Results

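Trp63 encodes p63, a transcription factor of the p53 family that basal cells of stratified and glandular epithelia depend on. The gene has a pair of promoters. The upstream one gives the long TAp63 forms, which carry a transactivation domain, and an internal one gives the short ΔNp63 forms, which lack it and are the main p63 proteins of basal epithelium. In the mammary gland p63 marks the basal, myoepithelial layer and is low or absent in luminal cells. The open chromatin around this gene was described here from all entries of 14 deposited region lists that overlapped the window chr16:25633000-25943000 (mm9), which takes in the gene near 25.684 to 25.892 Mb and about 51 kb on either side. Of 311456 nuclear entries in the 14 lists, 67 met this rule. The gene interval comes with the rule and is approximate. No mm9 annotation was used here, so no peak is assigned to an exon, an intron or either promoter. In the RefSeq table of another build (GRCm38.p6) Trp63 (gene ID 22061) also lies on chromosome 16, spans 208 kb, and has Tprg and P3h2 as its protein-coding neighbours. Distances below are counted from the lower edge of the mm9 interval, the 5′ side of a gene read toward higher coordinates, as Trp63 is known to be.

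The lists come from ATAC-seq, in which the Tn5 transposase cuts and tags accessible DNA in nuclei. Normal cells were sorted by FACS from wild-type mammary glands of C57BL6J mice: adult basal cells, adult luminal progenitors, adult mature luminal cells, and fMaSC, the fetal mammary stem cell population at embryonic day 18, with 2 samples each. Tumours formed by the mouse mammary tumour line PY230 in syngeneic mice (strain C57BL6J) gave luminal cells with high SOX10 (3 samples) and with low SOX10 (3 samples). The remaining 6 of the 20 samples have no list of their own here and were not analysed. The authors called peaks on both samples of a normal type together and gave each peak a fold enrichment over background. Each normal type also has lists named UAR and URR, abbreviations the labels do not expand. Over the whole genome at least 99.9% of the UARs of each type held a peak of that type, and at least 99.7% of the URRs a peak of each other type. A further list holds regions open, and another regions closed, in SOX10-high PY230 cells. The region lists carry a score of unstated scale. Values per sample are not part of these lists, so depth is unknown, nothing below carries a replicate error, and no difference between cell types was tested. Fewer cells with an open site and a less open site in every cell also cannot be told apart.

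Basal cells had the most accessible sequence at Trp63, and mature luminal cells the least. The window held 26 basal peaks, 13 luminal progenitor peaks, 4 mature luminal peaks and 15 fMaSC peaks. Basal peaks covered 19477 bp of it, or 6.28%, compared with 2.67% of the genome as spanned by the lists. Luminal progenitor peaks covered 6836 bp, or 2.21%, against 1.8% of the genome. Mature luminal peaks covered 1760 bp, or 0.568%, against 1.66% of the genome. Fetal peaks covered 6219 bp, or 2.01%, against 1.82% of the genome. The locus was thus more than usually covered in the basal list, close to the list's own average in luminal progenitors and fMaSC, and under it in mature luminal cells. Mature luminal cells also had the fewest covered bases with the 30015 strongest peaks of each list, 1534 bp compared with 1646 bp in fMaSC, but not the fewest peaks (3, compared with 2 in fMaSC). The number of peaks called moves with sequencing depth, and its part in these counts was not tested.

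**Figure D1:**
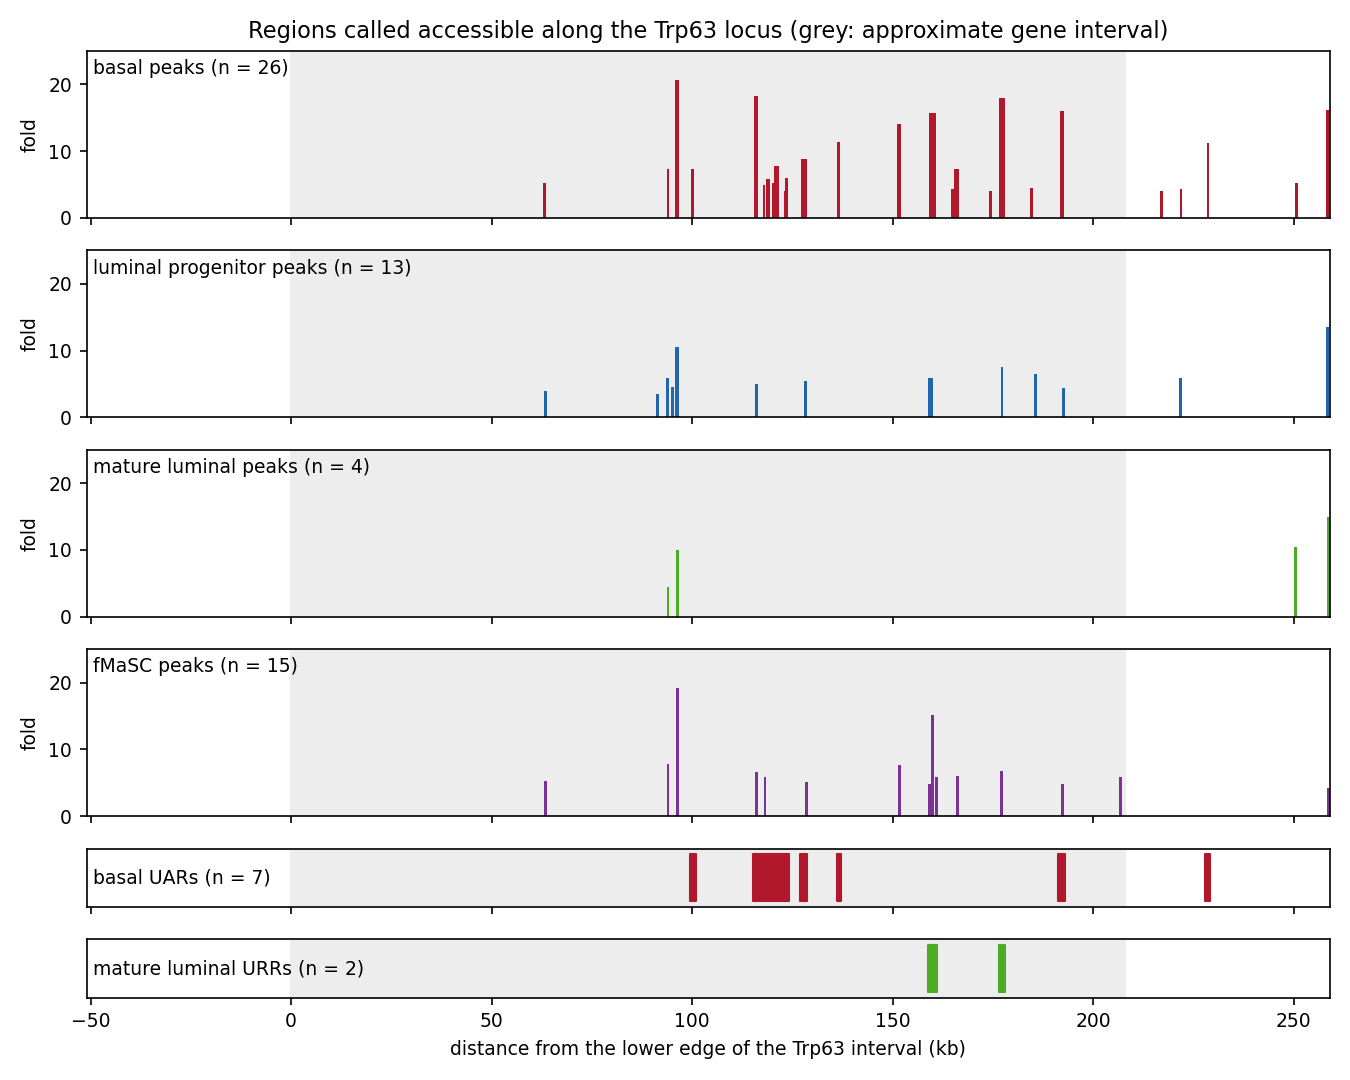
Peaks and regions along the Trp63 window. The horizontal axis is the distance in kb from the lower edge of the approximate gene interval (grey), and bar height in the upper 4 rows is the authors' fold, to be compared within a row only. Bars narrower than 0.7 kb are drawn 0.7 kb wide. Basal peaks (26) and basal UARs (7) crowd the later part of the gene, mature luminal cells have 4 peaks, and every row is empty from the window's edge to past 60 kb inside the gene.

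To judge whether such counts are common, the genome was cut into 8502 tiles of the window's length. At least 26 basal peaks were found in 8.87% of tiles, at least 13 luminal progenitor peaks in 21.6%, at least 4 mature luminal peaks in 55.5% and at least 15 fMaSC peaks in 24.1%. Median tiles held 6 basal, 4 luminal progenitor, 4 mature luminal and 7 fMaSC peaks. The window was therefore peak-rich in basal cells, fairly rich in luminal progenitors and fMaSC, and at the median in mature luminal cells. Tiles include gene-poor stretches, where few peaks of any type lie.

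The peaks were unevenly placed along the gene. No entry of any of the 14 lists lay in the 51 kb of window before the gene or in the first 62.9 kb of the gene. The stretch without a peak ran from chr16:25631760 to 25746885, which is 115 kb long. The median gap between neighbouring merged peak regions of the genome was 6.39 kb, and 2.46% of gaps were at least as long as this one. That share counts gaps and not bases, and long gaps take up more of the genome than their number. The approximate upstream edge of the gene lay in this empty stretch and had no peak in any normal type at the authors' threshold (q = 0.001). From the first peak to the end of the gene, 145 kb held 21 basal peaks, 11 luminal progenitor peaks, 2 mature luminal peaks and 14 fMaSC peaks. The 51 kb after the gene held 5 basal, 2 luminal progenitor, 2 mature luminal and 1 fMaSC peak.

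When overlapping peaks of the 4 types were merged, the window held 30 regions, and 26 of them (86.7%) had a basal peak, compared with 61.5% of merged regions genome-wide. A mature luminal peak was present in 4 regions (13.3%), compared with 45.9% genome-wide. Luminal progenitor peaks were present in 13 regions (43.3%, 44.4% genome-wide), and fMaSC peaks in 13 regions (43.3%, 58% genome-wide). Basal cells alone had a peak in 12 of the 30 regions (40%), while 15.5% of all merged regions are of this kind. Most of these were weak peaks, for which a missing call in another list says little. Only chr16:25820202-25820794 (fold 11.4) and chr16:25912283-25912913 (fold 11.2) passed the basal list median of 7.98. The others had folds of 4.1 to 7.76. Of these 12, 5 lay side by side in a single basal UAR, and when peaks within 500 bp of each other were joined, 7 of 25 regions (28%) had a basal peak alone, compared with 14.4% of the genome's regions. Luminal progenitors alone had a peak in 3 regions (4.76% of regions genome-wide), and fMaSC alone in 1 (13.5%). No region had a mature luminal peak alone, a pattern that makes up 12.2% of regions genome-wide. Regions with a peak in all 4 types numbered 3 (10%, compared with 21.7%). The trio of basal cells, luminal progenitors and fMaSC without mature luminal cells accounted for 6 regions (20%, compared with 6.47%). Outside the basal list their strongest peaks were mostly weak. Only a fold of 7.48 passed the luminal progenitor list median of 6.86, the others being 3.95 to 5.82. Only a fold of 15.2 passed the fMaSC list median of 7.6, the others being 4.81 to 6.84. Basal folds there were 8.84 to 18.3, apart from 1 of 5.17.

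**Figure D2:**
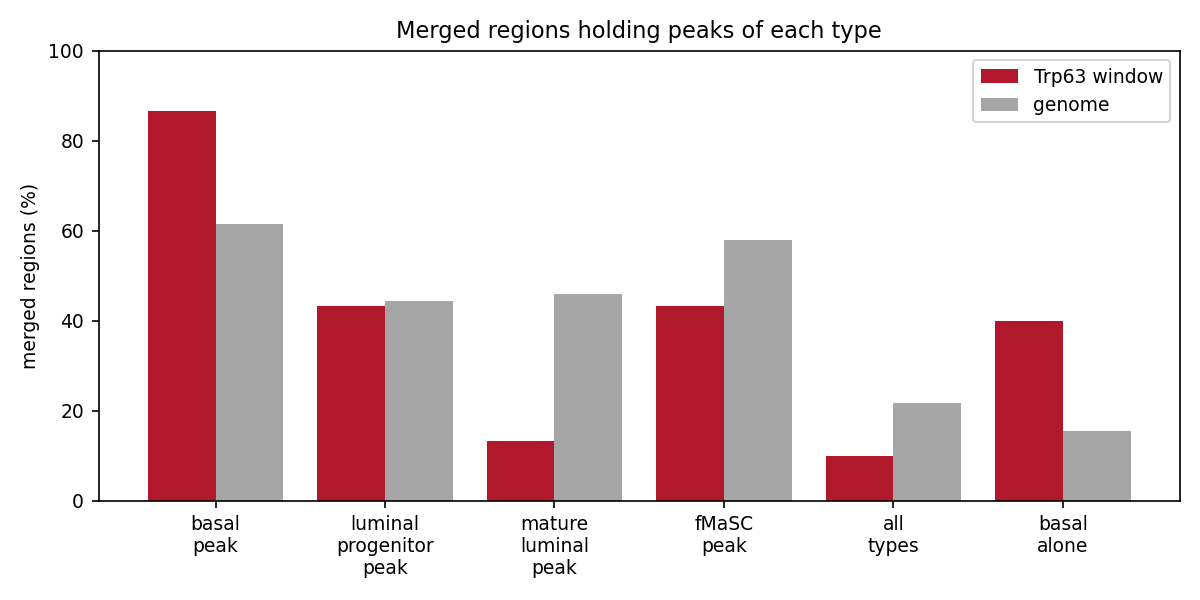
Merged regions (%) that hold a peak of each type, a peak in all 4 types, or a basal peak alone, in the Trp63 window (30 regions, left bars) and in the genome (128800 regions, right bars). Basal peaks were present in 86.7% of regions in the window, compared with 61.5% of the genome's regions, and mature luminal peaks in 13.3%, compared with 45.9%.

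Most peaks of the other types lay on basal peaks, while many basal peaks stood alone. Of 26 basal peaks, 12 (46.2%) overlapped no peak of another type, compared with 24.8% of all basal peaks. These are the peaks of the basal-alone regions above, mostly of low fold. A luminal progenitor peak overlapped 10 of the 26 (38.5%, 53.7% of all basal peaks), a mature luminal peak 4 (15.4%, 45.2%) and an fMaSC peak 12 (46.2%, 64.5%). In the other direction, all 4 mature luminal peaks overlapped a basal peak (61.5% genome-wide), as did 14 of 15 fMaSC peaks (93.3%, 70% genome-wide) and 10 of 13 luminal progenitor peaks (76.9%, 74.6% genome-wide). For luminal progenitors the share was near that of the whole list.

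The 3 regions shared by all 4 types lay at chr16:25777471-25777948, chr16:25779702-25780785 and chr16:25942144-25942962. The one at chr16:25779702-25780785, about 96.2 kb into the gene, had the highest fold of the locus in the basal and the fMaSC lists. There the fold was 20.7 in basal cells, which ranked in the top 9.22% of that list, 10.6 in luminal progenitors (top 26.4%), 9.96 in mature luminal cells (top 39.8%) and 19.2 in fMaSC (top 10.1%). It was thus the nearest the locus came to a strong peak in every type. Folds are on each list's own scale, and ranks from lists of different length show no change between types. Its neighbour at chr16:25777471-25777948 was weaker in each list, with folds of 7.33 in basal cells, 5.82 in luminal progenitors, 4.48 in mature luminal cells and 7.85 in fMaSC. The other shared region, at chr16:25942144-25942962, lay 258.6 kb along, beyond the gene and at the edge of the window. It held the highest folds of the locus in both adult luminal lists, 13.5 in luminal progenitors (top 16.6%) and 14.9 in mature luminal cells (top 21%). Its fold was 16.2 in basal cells (top 18.7%) and 4.3 in fMaSC (top 94%), near the bottom of the fetal list.

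Mature luminal cells had one further peak, at chr16:25934207-25934652, with a fold of 10.5 (top 37.2%). It overlapped a basal peak with a fold of 5.17 (top 77.8%), and neither luminal progenitors nor fMaSC had a peak there. Within the gene interval, mature luminal peaks were thus limited to the pair of shared regions near 93.7 and 96.2 kb.

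After the shared site at 96.2 kb, the basal peaks of highest fold were spread over the later part of the gene. The basal peak at chr16:25799313-25800462 had a fold of 18.3 (top 13.9%), and the one at chr16:25860584-25861906 a fold of 17.9 (top 14.7%). Basal peaks with folds of 16 and 15.7 lay at chr16:25875663-25876756 (top 19.3%) and chr16:25842978-25844872 (top 19.8%). Luminal progenitors and fMaSC also had peaks at these 4 sites. At chr16:25799313-25800462 the luminal progenitor peak had a fold of 4.99 (top 72.5%) and the fMaSC peak 6.58 (top 59.4%), so both stood low in their lists. At chr16:25843552-25844256 fMaSC had its highest fold after the shared site near 96.2 kb, 15.2 (top 17.3%), followed by 7.85 at chr16:25777599-25777948 (top 47.5%). In luminal progenitors the highest fold outside the shared sites was 7.48 (top 43.5%), at chr16:25860922-25861525.

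The locus was not made of the strongest peaks of the genome. The median fold of its basal peaks was 7.33, compared with 7.98 over the whole basal list, and 10 of 26 stood at or above that list median. For luminal progenitors the medians were 5.82 and 6.86, with 3 of 13 peaks at or above the list median. For fMaSC they were 5.82 and 7.6, with 4 of 15. Mature luminal cells had few peaks but 3 of 4 stood at or above their list median of 8.47, and the median of the 4 was 10.2. A single basal peak, that at chr16:25779784-25780781, and no peak of another type, ranked in the top 10% of its list.

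**Figure D3:**
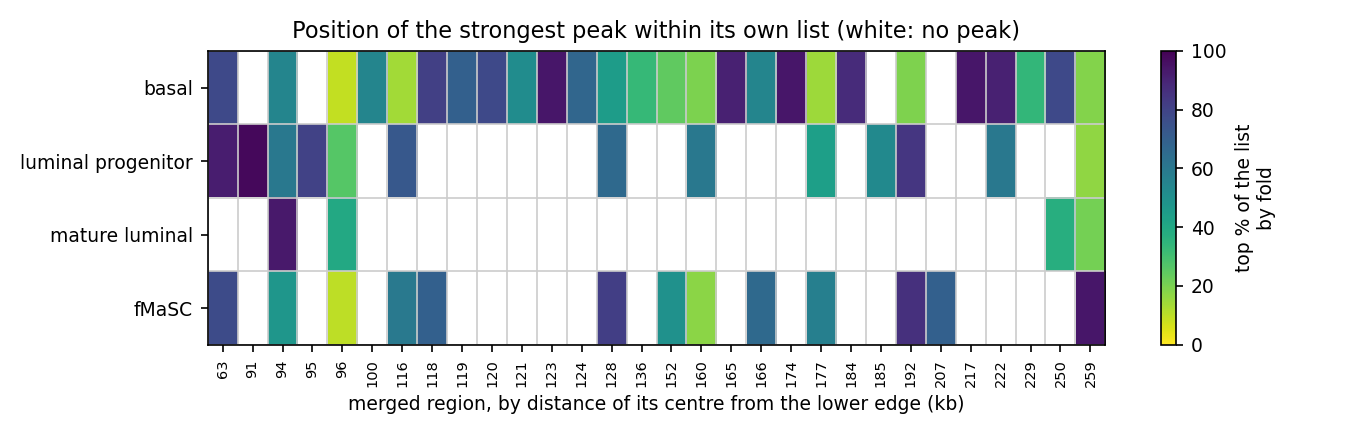
Place of the strongest peak of each merged region (columns, by distance of its centre from the lower edge of the gene interval, in kb) within the list of its own cell type (rows), as the top percentage of that list by fold. Light colours stand for high places and white for no peak. The basal row is nearly filled, the mature luminal row has 4 entries, and the site near 96 kb is the lightest in basal cells (top 9.22%) and fMaSC (top 10.1%).

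Peaks were often wider in basal cells than in fMaSC at the same site. In 12 regions with both basal and fMaSC peaks, basal peaks covered more bases in 11, and the median ratio of basal to fMaSC bases was 2.44. Basal peaks are wider than fMaSC peaks in 80.6% of shared regions genome-wide, where the median ratio was 1.38. At chr16:25799313-25800462, for example, the basal peak covered 1150 bp, the luminal progenitor peak 200 bp and the fMaSC peak 273 bp. At chr16:25811142-25812526 the widths were 1385 bp in basal cells, 374 bp in luminal progenitors and 205 bp in fMaSC. Compared with luminal progenitors, basal peaks were wider in 6 of 10 shared regions and narrower in 4 (70.2% wider genome-wide), with a median ratio of 1.38 at the locus and 1.18 in the genome. Compared with mature luminal cells, they were wider in 3 of 4 shared regions (75% genome-wide). The widest single peak of the locus was basal, 1895 bp at chr16:25842978-25844872. Luminal progenitors had their widest one at the same site, 1198 bp at chr16:25842902-25844099, where fMaSC had 3 separate peaks. Mature luminal cells and fMaSC had their widest peaks at the shared site near 96 kb, of 581 bp at chr16:25780041-25780621 and 941 bp at chr16:25779845-25780785.

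**Figure D4:**
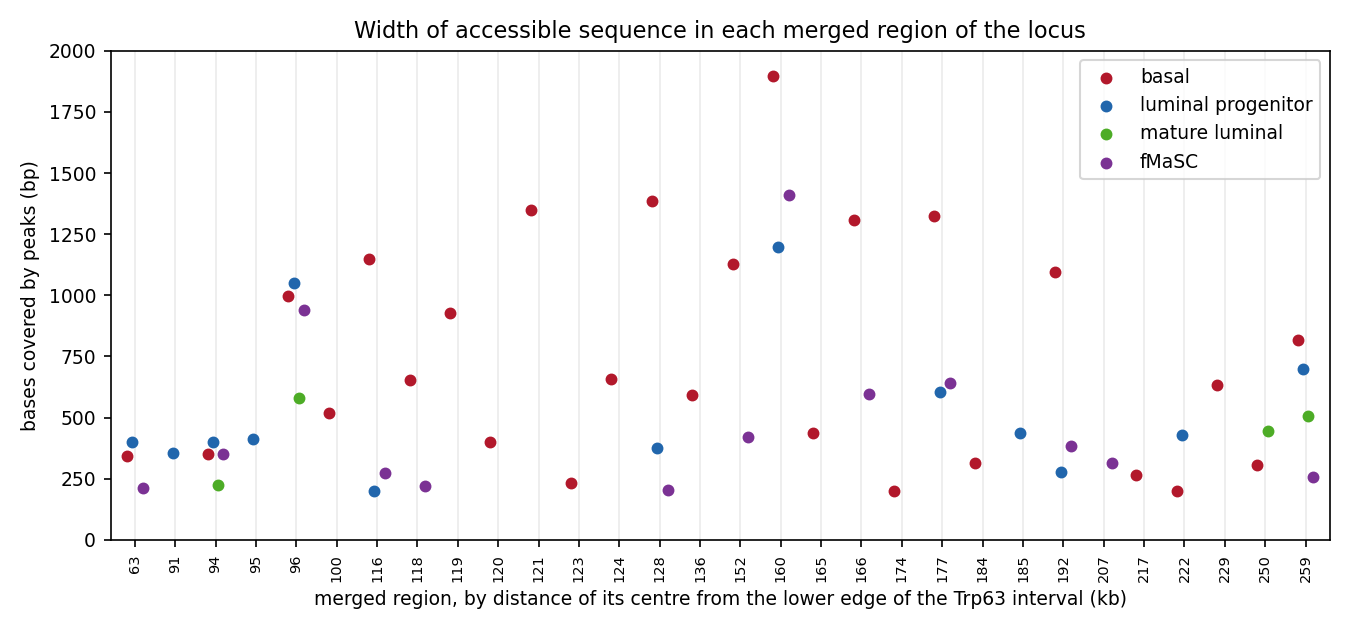
Bases covered by peaks of each type (bp) in each of the 30 merged regions, ordered along the locus by the distance of the region's centre from the lower edge of the gene interval (kb). Each point is 1 cell type. Basal points lie above fMaSC points in 11 of 12 shared regions, and the largest value is the 1895 bp of basal cells near 160 kb.

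Among the UAR and URR lists, the locus appeared as a place of basal UARs and mature luminal URRs. The window held 7 of the 5144 basal UARs and 2 of the 1028 mature luminal URRs. It held no UAR of luminal progenitors, mature luminal cells or fMaSC, and no URR of basal cells, luminal progenitors or fMaSC. Absence from a short list says little, since at least 1 entry was found in 3.34% of tiles for luminal progenitor UARs, 26.9% for mature luminal UARs, 12.4% for fMaSC UARs, 0.835% for basal URRs, 0.318% for luminal progenitor URRs and 2.55% for fMaSC URRs. At least 1 basal UAR was found in 30.2% of tiles, and at least 7 in 45 of 8502 tiles, or 0.529%. The count of 7 keeps chr16:25799201-25800800 and chr16:25801001-25808200 apart, although they nearly touch. Joined, they would lower the count, and neighbouring UARs were not joined in the window or the tiles. At least 2 mature luminal URRs were found in 1.72% of tiles. The basal UARs covered 16000 bp, or 5.16% of the window, compared with 0.387% of the genome.

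**Figure D5:**
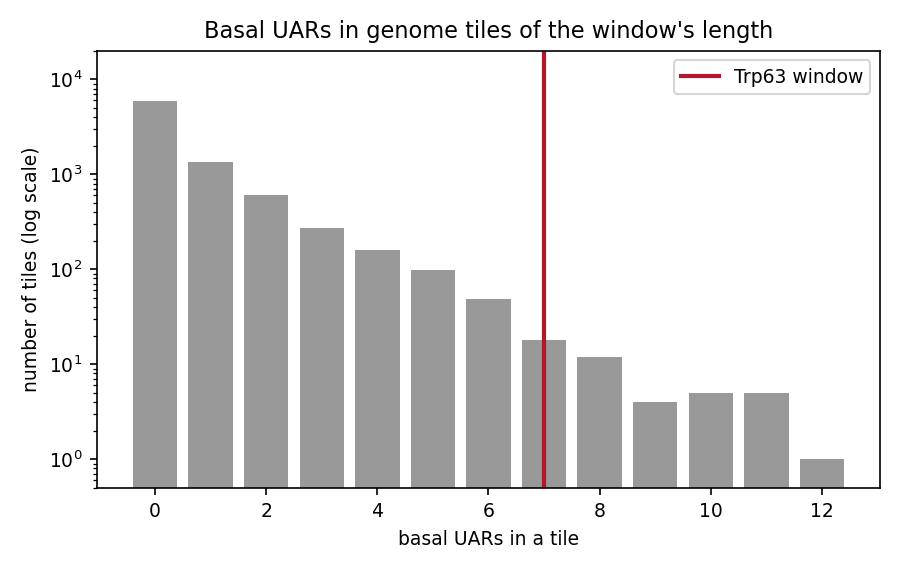
Number of genome tiles of the window's length (log scale) by how many basal UARs they hold. The line marks the 7 basal UARs of the Trp63 window, a count reached or passed in 45 of 8502 tiles, while 5933 tiles held none. UARs that lie close together were counted separately.

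Of the 7 basal UARs, 6 lay within the gene and 1 after it. The widest, at chr16:25801001-25808200, was 7200 bp long and began 117 kb into the gene. In the whole list, 15 of 5144 basal UARs (0.292%) were at least as wide, and the median width was 1700 bp. It held 6 basal peaks that together covered 58.6% of it. None of them was strong: their folds reached 7.76 (top 51.5%) at most and 4.1 (top 94.1%) at least. Here basal cells had a broad stretch of modest peaks and not a single high one. Of the other types, fMaSC had 1 peak in this stretch, at chr16:25801805-25802023, with a fold of 5.82 (top 69.3%), and it covered 3.04% of the UAR. Luminal progenitors and mature luminal cells had no peak in it.

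The basal UAR of highest score at the locus was also the shortest. It lay at chr16:25820101-25821000, 900 bp long, and its score of 11785 ranked 91st among 5144 (top 1.77%). It held 1 basal peak with a fold of 11.4 (top 33%), and no other type had a peak there. The next scores belonged to the wide UAR, with 2571 (top 30.4%), and to chr16:25799201-25800800, with 2174 (top 37.6%). The UAR at chr16:25875301-25877000 had a score of 1571 (top 51.8%), and the one at chr16:25783401-25784900 a score of 1394 (top 57%). The lowest were chr16:25911901-25913100, the one beyond the gene, with 577 (top 91.6%), and chr16:25810801-25812700, with 386 (top 98%). The scores thus ran from near the top to near the bottom of the basal UAR list.

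The peaks of other types in these UARs were narrow. Of the 7 UARs, 3 held no peak of another type, compared with 50.8% of all basal UARs. A luminal progenitor peak lay in 3 of 7 (42.9%, compared with 26.2% of all basal UARs) and an fMaSC peak in 4 of 7 (57.1%, compared with 42.8%). No mature luminal peak lay in any of the 7 (19.2% of all basal UARs). In the UAR at chr16:25875301-25877000, basal peaks covered 64.4% of the region, luminal progenitor peaks 16.3% and fMaSC peaks 22.6%. Seen from the peaks, 12 of 26 basal peaks (46.2%) lay in a basal UAR, compared with 7.67% of all basal peaks. UARs are drawn from the same basal samples as the peaks, so the 2 lists are not independent.

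Both mature luminal URRs lay within the gene. Each held a peak of each of the other 3 types, as did 99.7% of all mature luminal URRs. The URR at chr16:25842701-25845000 had a score of 2340 (top 33.6%). Basal peaks covered 82.4% of it, luminal progenitor peaks 52.1% and fMaSC peaks 61.3%. The URR at chr16:25860501-25862000 had a score of 3219 (top 19.9%). There basal peaks covered 88.2%, luminal progenitor peaks 40.3% and fMaSC peaks 42.8%. Mature luminal cells had no peak in either, whereas 20.6% of all mature luminal URRs hold one. Neither overlapped a basal UAR, as is usual, since 3.31% of all mature luminal URRs do.

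Comparing PY230 luminal cells with high and with low SOX10, no region of the window was listed as open and none as closed in SOX10-high cells. At least 1 open region was found in 23.6% of tiles and at least 1 closed region in 57.4%, and 36.1% of tiles held neither. The nearest open regions lay 726 kb after and 1108 kb before the window. The nearest closed region, at chr16:25544301-25545600, lay 87.4 kb before it, with a score of 898 (top 5.9%). That site is also a mature luminal UAR, at chr16:25544301-25545700 (score 6676, top 3.29%). The lists hold only regions called as differing between SOX10-high and SOX10-low cells, so they do not say whether Trp63 was open or shut in both.

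A few entries just missed the window. A basal UAR at chr16:25630701-25632000 (score 2512, top 31.4%) ended 1 kb before it, around a basal peak at chr16:25631204-25631759 with a fold of 12.1. A mature luminal URR at chr16:25623801-25625200 lay 7.8 kb before it, with a score of 6174 (top 4.77%). It held a basal peak with a fold of 24.1 (top 4.42%), a luminal progenitor peak with a fold of 10.2 (top 28.2%) and an fMaSC peak with a fold of 18.2 (top 11.7%). The basal peak at chr16:25944894-25946125, with a fold of 16.6 (top 17.7%), began 1.89 kb after the window and overlapped an fMaSC peak with a fold of 12.2 (top 25.6%).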

How the data were processed

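Per the labels' protocols, ATAC-seq used nuclei of FACS-sorted cells, Nextera transposase and paired-end HiSeq sequencing. Tools named by the submitters' processing notes, without role or order, are MACS2 2.1.1, SICER, bedtools 2.20.1, Bowtie 0.12.8, SAMtools 1.3.1 and FastQC, with the mm9 build. The sources used here do not give the handling of duplicates, repeats or the Tn5 offset. The authors called peaks on both samples of a type together at q = 0.001, per the list names. Each peak carries a fold deposited by the authors, a ratio over the caller's background, used only within its list. UAR, URR and PY230 regions carry a score deposited by the authors, of unstated scale and origin.

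Positions are 1-based mm9. Peak starts were taken as deposited, and entries of the lists on a 100 bp grid were shifted by 1 base. Chromosomes 1 to 19 and X were used. Overlap means at least 1 bp. Top percentages rank an entry by fold or score, ties taking the better rank. Tiles begin at base 1 of each chromosome and end at the last entry of any list. Regions named were the 3 of highest fold and the widest per peak list, all regions shared by 4 types, and all UAR and URR entries of the window. Others were chosen after their values were seen. The members, lists and rules were chosen with earlier results of these data known. No test was made. Python 3.11.15, numpy 2.4.6, pandas 2.3.3 and matplotlib 3.10.9 were used, and overlaps equalled those of bedtools 2.31.1 on simulated data.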

Additional observations from a re-analysis of the deposited data

How the results depend on the processing

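Of 114 values recomputed under 7 alternatives, 84 stayed within a factor of 1.5 and 30 did not. The 84 overstate how stable the results are. They include counts of 0 that stayed 0, and the 50% overlap rule was not applied to the patterns of merged regions. Under each of the filters by fold given below, 10 of 12 values moved. Basal cells had the most peaks and covered bases under every one. At or above the list median fold, the window held 10 basal peaks (11014 bp), 3 luminal progenitor peaks (2355 bp), 3 mature luminal peaks (1534 bp) and 4 fMaSC peaks (2415 bp), in 12 merged regions, 5 with a basal peak alone and 1 with all types. With 30015 peaks per list, taken by fold, it held 9 basal (9629 bp), 3 luminal progenitor (2355 bp), 3 mature luminal (1534 bp) and 2 fMaSC peaks (1646 bp), in 10 merged regions, again 5 basal alone and 1 with all types. The lower counts follow from the fewer peaks kept. Genome-wide shares of basal-alone and all-type regions were not computed under these filters, so these region counts cannot be called unusual. Mature luminal cells, lowest among all peaks, were level with luminal progenitors in number of peaks under both filters, below fMaSC under the first and above it under the second. Basal peaks without a peak of another type numbered 5 of 10 (24.1% genome-wide) and 5 of 9 (19.7%) under these filters. The filters also dropped weaker peaks of the other types. Of the basal peaks so counted, only those at chr16:25820202-25820794 and chr16:25912283-25912913 had no peak of another type before filtering. Without a filter, basal peaks lacking another type numbered 19 of 26 (34% genome-wide) when 50% of the peak had to be covered. They numbered 7 of 21 (23.3% genome-wide), in 7 basal-alone regions, when peaks within 500 bp were merged. The gene interval alone held 2 mature luminal peaks (807 bp). A window 100 kb wider on each side held 7 mature luminal peaks (3532 bp), 9952 bp of fMaSC peaks, 1 mature luminal UAR and 1 closed PY230 region. Setting peaks to 500 bp moved no value by more than 1.5 times, but covered bases then only follow the number of peaks. Basal peaks covered 13000 bp and fMaSC peaks 7500 bp, compared with 19477 bp and 6219 bp at their deposited widths. No paired analysis was possible because the lists combine samples, and for the same reason no replicate could be left out. Depth is unknown, so an absent peak means only that none was called.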
